A study of Homo sapiens with 4 samples.

Results

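Oxidative phosphorylation genes encode the subunits of the 4 respiratory complexes and of ATP synthase. The set was taken from the count table by symbol, as the protein-coding genes named *NDUFA*, *NDUFB*, *NDUFC*, *NDUFS* and *NDUFV* with a number, *NDUFAB1*, *SDHA* to *SDHD*, *UQCR*, *CYC1*, *COX4* to *COX8*, *ATP5*, and the mitochondrially encoded *MT-ND*, *MT-CO*, *MT-CYB* and *MT-ATP* genes. It held 102 of the 63677 genes counted, 89 encoded in the nucleus and 13 on mitochondrial DNA. The cells were LX-2, a permanent human line derived from hepatic stellate cells, the liver cells that lay down collagen in fibrosis. They received 20 nM of either an miR-6133-5p mimic, a synthetic copy of that microRNA, or miControl, a negative control mimic. Both groups were then given 5 ng/mL of rhTGF-β1, a cytokine that drives collagen production, and RNA was taken 24 h after it, so cells without the cytokine form no part of the comparison. Each group had 2 libraries (replicates 1 and 2) of polyadenylated RNA from this 1 line. Since nothing states that the replicates were separate cultures, p-values measure the spread between these libraries, which may be technical.

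Complexes I to IV pass electrons from NADH and succinate to oxygen and, except for complex II, pump protons across the inner mitochondrial membrane, and complex V (ATP synthase) uses the proton gradient to make ATP. Complex II is built from nuclear genes alone, whereas the other complexes combine nuclear subunits with a few hydrophobic subunits translated inside the mitochondrion. Mitochondrial mRNAs are cut from long transcripts of both strands of the circular genome, so their levels depend on transcription, cleavage and stability within the organelle, while the nuclear genes answer to separate promoters, among them sites for NRF1 and the ETS factor GABP.

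Totals ran from 51862006 to 93811213 counts per library, and 3 counts, taken as the floor, corresponded to 0.0302 to 0.0610 counts per 1000000 (CPM) after scaling by TMM, edgeR's correction of library totals. The stellate markers *VIM* (1554 to 2029 CPM) and *PDGFRB* (38.2 to 47.3 CPM) were present, whereas *DES*, *LRAT*, *DCN* and *LUM* were at or near 0. Of 9 stellate markers tested, 4 were lower with miR-6133-5p, and the 12 listed summed to 8979 and 8415 CPM against 6255 and 5628 CPM. The part of this in the results on the members was not tested. The markers of hepatocytes summed to 2.20 to 3.10 CPM over 8 genes (1 at 0 in all libraries), those of endothelial cells to 2.87 to 3.17 CPM over 5 genes (1 at 0) and those of immune cells to 0.290 to 0.373 CPM over 6 genes (3 at 0). The 4 biliary markers summed to 83.8 and 85.3 CPM with miControl and to 39.9 and 36.8 CPM with miR-6133-5p, nearly all of it *SOX9*. *EPCAM* and *KRT19* stayed under 0.19 CPM. Of the 2 biliary markers tested, 1 was higher and 1 was lower at an adjusted p below 0.01. In the miR-6133-5p group, replicate 1 lay above replicate 2 for 88 of the 94 tested members, by a median of 0.25 on the log2 scale, against 66 of 94 and 0.05 in the miControl group. The numbers of nuclear and mitochondrial members that were higher, the medians and some single genes are therefore also given without miR-6133-5p replicate 1. Values of most other genes below are given with all libraries only. Because whole cultures were sequenced, a smaller number of cells and less RNA per cell cannot be told apart.

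Of the 102 members, 94 had enough counts to be tested, 81 nuclear and 13 mitochondrial. With miR-6133-5p, 10 were higher and 1 was lower at an adjusted p below 0.01, and 83 did not pass, by edgeR's quasi-likelihood test. Among all 18252 tested genes, 7.96% were higher and 10.9% lower by the same rule. The members' share of higher genes (10.6%) lay near this background and near the 10.2% of protein-coding genes, whereas their share of lower genes was 1.06%. With a log2 fold change beyond 0.8 added, 1 member (*NDUFB5*) was higher and 0 were lower, against a background of 2.9% and 5.54%. The log2 fold change was above 0 in 82 of 94 members and in 9550 of 18252 genes. Its median was 0.19 over the members and 0.03 over all tested genes, and no test was made over the members, which are not replicates. Both miR-6133-5p libraries lay above both miControl libraries in 48 members and below them in 4, against 33.2% and 31.3% of all genes. The numbers depended on single libraries. The 9 nuclear members that were higher became 1 without miControl replicate 1, 2 without miControl replicate 2, 9 without miR-6133-5p replicate 1 and 26 without miR-6133-5p replicate 2. The nuclear median of 0.17 became 0.05 without miR-6133-5p replicate 1 and 0.28 without replicate 2 of that group. By complex, the nuclear medians without miR-6133-5p replicate 1 were 0.11 (I), -0.11 (II), -0.025 (III), -0.0055 (IV) and 0.016 (V), so that those of complexes II, III and IV, which were above 0 with all libraries, turned below it.

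**Figure D1:**
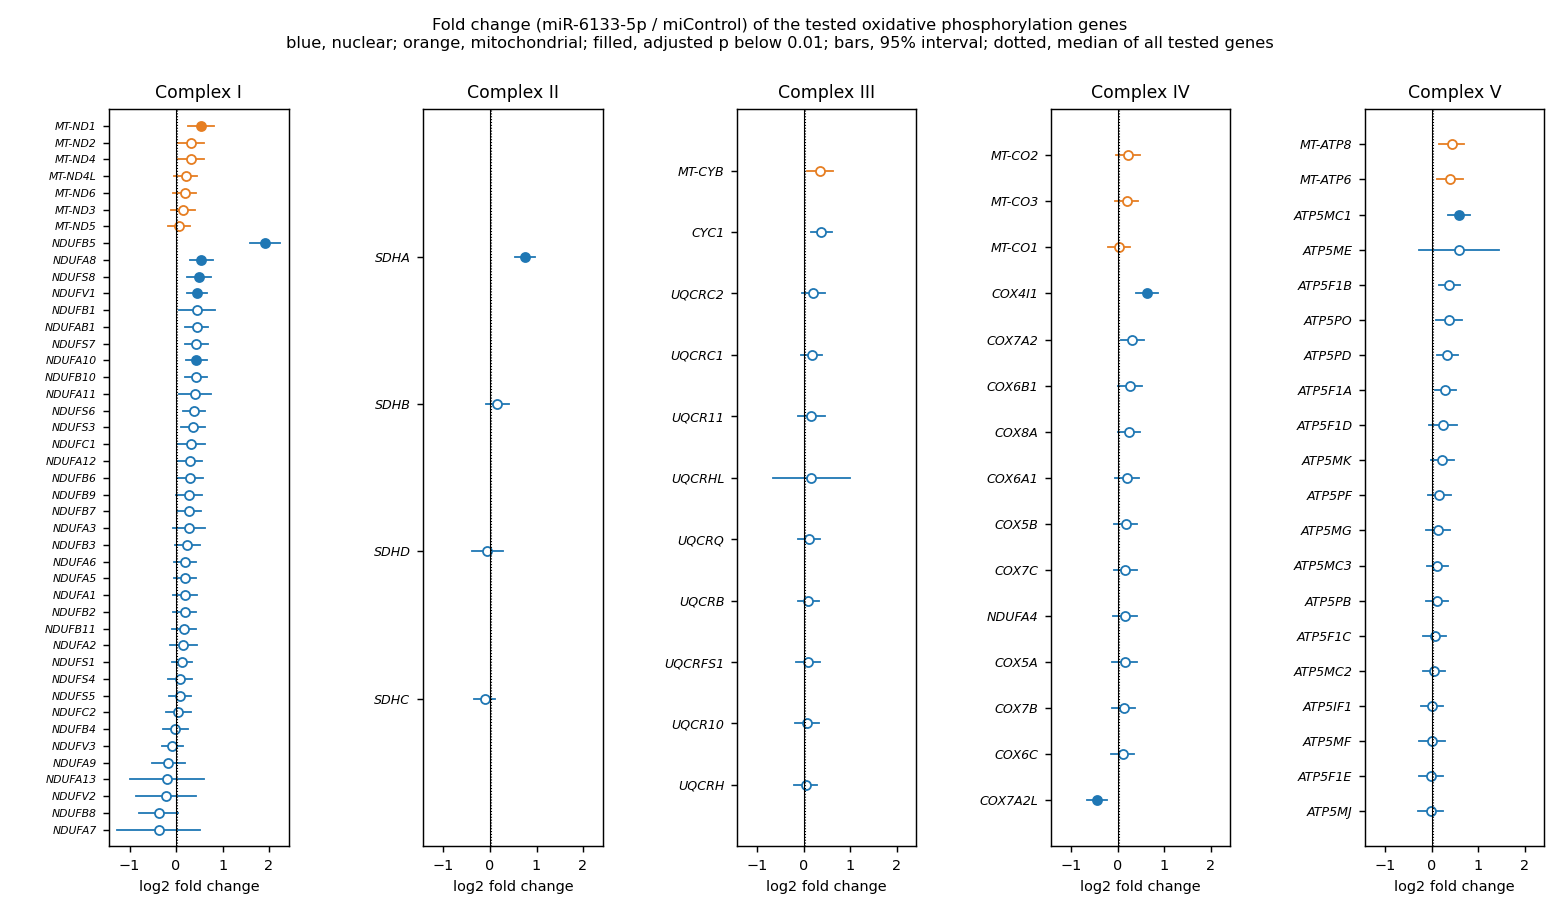
Log2 fold change of miR-6133-5p over miControl (horizontal axis) for the tested members reported here, by complex, with 95% intervals from the edgeR fit of 2 libraries per group. Nuclear genes are blue, mitochondrial genes orange, and filled points passed the adjusted p of 0.01. *NDUFB5* stands at 1.92, *COX7A2L* is the only filled point below 0, and most open points lie between 0 and 0.5.

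The promoters of nuclear members are shown because matches to the NRF1 core are common in this family and because 2 of the higher genes, *SDHA* and *NDUFA8*, carry several. RefSeq promoters on GRCh38.p14, from 250 bases before to 50 bases after the start, were found for 70 of the 89 nuclear members. The letters GCGCANGCG (NRF1 core), CCGGAAG (ETS core, shared by GABP) and AAGATGGCG (YY1 core) were searched on both strands, and as their letters differ, a match to one is no match to another. Capitals mark the matches. In *SDHA* (chr5:218070-218369, plus strand) and *NDUFA8* (chr9:122159730-122160029, minus strand) they mark 4 and 3 matches to the NRF1 core. Those of *NDUFA8* overlap each other, and 2 of them are 1 palindrome read on both strands, so 3 matches do not mean 3 sites. In *COX4I1* (chr16:85799445-85799744, plus strand) the capitals mark 1 ETS core on the opposite strand.
SDHA: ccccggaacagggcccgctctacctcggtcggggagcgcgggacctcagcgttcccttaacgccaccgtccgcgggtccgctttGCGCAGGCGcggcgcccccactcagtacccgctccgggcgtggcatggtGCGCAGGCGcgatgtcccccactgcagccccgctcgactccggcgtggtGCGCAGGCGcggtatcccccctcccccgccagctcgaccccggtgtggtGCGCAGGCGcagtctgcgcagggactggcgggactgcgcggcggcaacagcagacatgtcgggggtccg
NDUFA8: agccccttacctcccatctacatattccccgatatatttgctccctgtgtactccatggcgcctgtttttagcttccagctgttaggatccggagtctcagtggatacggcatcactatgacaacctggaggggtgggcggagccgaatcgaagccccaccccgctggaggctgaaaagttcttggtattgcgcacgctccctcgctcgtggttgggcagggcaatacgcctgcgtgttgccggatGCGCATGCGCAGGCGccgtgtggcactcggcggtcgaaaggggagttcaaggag
COX4I1: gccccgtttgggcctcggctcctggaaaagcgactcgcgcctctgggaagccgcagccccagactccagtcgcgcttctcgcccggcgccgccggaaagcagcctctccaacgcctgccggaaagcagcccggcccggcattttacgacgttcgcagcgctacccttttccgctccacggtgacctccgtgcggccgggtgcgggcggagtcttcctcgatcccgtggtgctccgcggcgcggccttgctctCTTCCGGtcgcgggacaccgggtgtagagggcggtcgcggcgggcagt

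The NRF1 core stood in 34.3% of the members' promoters (24 of 70) and in 9.02% of the promoters of all 27305 genes in the table. The ETS core was found in 30% of members and 12.2% of all genes, and the YY1 core in 12.9% and 2.14%. The comparison genes were not limited to protein-coding or tested genes, unlike the members, and shares among those alone were not computed. Whether matches went with being higher was not tested, and only 7 of the 9 higher nuclear members had a promoter, too few to tell. Among the 7 higher genes with a promoter in the table, 2 had an NRF1 core, 1 an ETS core and 0 a YY1 core, whereas among the 59 that were lower or did not pass, 21, 20 and 9 had them. A match describes the letters in the window and is not a measured site.

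Complex I (NADH dehydrogenase) held most of the members that changed, and it is also the largest complex, with 37 of the 81 tested nuclear members. Of these 37, 6 (16.2%) were higher and 0 lower, and the median log2 fold change was 0.28. Among all tested genes 7.96% were higher and 10.9% lower, and among protein-coding genes 10.2% were higher. At an unadjusted p below 0.05 the complex I numbers were 18 and 0, and by DESeq2 at an adjusted p below 0.01 they were 9 and 0. The core nuclear subunits carry the flavin, the iron-sulphur clusters and the quinone site. Of these, *NDUFV1* and *NDUFS8* were among those higher. Of the accessory subunits, which surround and stabilise the core, *NDUFB5*, *NDUFA8* and *NDUFA10* were higher, and the median over all accessory subunits was 0.22.

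*NDUFB5* (ENSG00000136521, GRCh37 chr3:179322478-179345435), an accessory subunit of the membrane arm, had the largest difference of all members. Its level was 3.11 and 2.99 CPM with miControl against 12.2 and 10.8 CPM with miR-6133-5p. The log2 fold change was 1.92 (SE 0.15, adjusted p = 1.03e-06), or 3.78-fold, and stayed between 1.81 and 1.99 when each library was left out. The rise rested on 153 and 163 counts against 801 and 1075. Per kb of the canonical transcript, *NDUFB5* was the lowest nuclear member of the complex with miControl (0.727 CPM per kb), and it was still low with miR-6133-5p (2.75 CPM per kb), beside 166 and 176 CPM per kb for *NDUFS5*, the highest with miControl. Levels per kb depend on the transcript chosen for the length.

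*NDUFS8* (chr11:67798084-67804111), a core subunit that binds iron-sulphur clusters, went from 53.0 and 47.3 CPM to 76.9 and 64.2 CPM, a log2 fold change of 0.49 (SE 0.12, adjusted p = 0.00609). *NDUFV1* (chr11:67373124-67380025), the flavoprotein that oxidises NADH, went from 121 and 112 CPM to 163 and 155 CPM, a log2 fold change of 0.45 (SE 0.10, adjusted p = 0.00518). In both of these core subunits the groups did not overlap. Of the other core subunits, *NDUFS7* (0.44, adjusted p = 0.0112) and *NDUFS3* (0.37, adjusted p = 0.0320) did not pass and their groups did not overlap either. *NDUFS1*, with 167 and 176 CPM against 183 and 191 CPM, had a log2 fold change of 0.13, and *NDUFV2* one of -0.21 at a level of 0.948 to 1.51 CPM.

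Among the accessory subunits, *NDUFA8* (chr9:124906337-124922058) had 29.1 and 26.5 CPM with miControl and 44.1 and 37.03 CPM with miR-6133-5p, with a log2 fold change of 0.55 (SE 0.12, adjusted p = 0.0034). *NDUFA10* (chr2:240831867-240965160) had 81.6 and 77.1 CPM against 111 and 104 CPM, a log2 fold change of 0.44 (SE 0.10, adjusted p = 0.00576). Both genes lay higher in each miR-6133-5p library than in either miControl library. *NDUFAB1*, the mitochondrial acyl carrier protein, which also serves fatty acid synthesis, and *NDUFB10* fell just outside the threshold (0.44 and 0.42, adjusted p = 0.0109 and 0.0105). *NDUFS5*, by contrast, had 84.3 and 80.0 CPM against 94.4 and 79.6 CPM, a log2 fold change of 0.08 with overlapping groups. The lowest log2 fold change of the complex was that of *NDUFA7* (-0.38, 95% interval -1.26 to 0.51), at 0.397 to 0.697 CPM.

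Several complex I members share exons with other genes. *NDUFA7*, *NDUFB8*, *NDUFV2*, *NDUFA13* and *NDUFA9* share 32.5%, 33.8%, 28.4%, 21.0% and 10.6% of their exon bases with another counted gene on the same strand, and none exceeded 8.46 CPM in any library. How the counting treated reads in shared exons is not given in the sources used here, so these values are uncertain, and the part of the overlap in them was not tested. Other members with shared exons had higher levels, such as *NDUFC2* (18.6% shared, 20.0 to 24.1 CPM) and *NDUFS3* (16.0%, 32.0 to 46.2 CPM), and *NDUFB1*, with none shared, had 3.87 to 6.22 CPM. In all, 30 members shared exon bases in this way, among them 6 of the 12 tested members with a log2 fold change below 0. *NDUFV2P1*, a pseudogene copy of *NDUFV2*, had 1.69 to 2.38 CPM, more than *NDUFV2* itself. *NDUFB5*, *NDUFA8* and *NDUFA10* shared no exon bases with matched genes, and *NDUFS8* and *NDUFV1* shared 1.88% and 8.36% on the same strand. The strand setting of the counting is not given either. On the opposite strand *NDUFV1* shared 4.09% and *NDUFS8* none, whereas *NDUFS7* shared 36.1% and *NDUFB2* 35.1%. Overlap with the 8012 counted identifiers that had no match could not be seen. The low level of *NDUFB5* is therefore uncertain as well, and its source was not tested. With the members that overlapped on the same strand left out, an alternative chosen after seeing the data, 7 nuclear members were higher and 1 was lower.

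In complex II (succinate dehydrogenase), the only complex that also works in the tricarboxylic acid cycle, 1 of 4 members changed. *SDHA* (ENSG00000073578, chr5:218418-257197), the flavoprotein that oxidises succinate, had 174 and 172 CPM with miControl and 294 and 290.3 CPM with miR-6133-5p. The difference on the log2 scale was 0.76 (SE 0.10, adjusted p = 9.06e-05), or 1.69-fold, and the replicates of each group lay far closer to each other than to the other group. The other subunits did not follow it. *SDHB*, the iron-sulphur subunit, had 67.9 and 69.0 CPM against 83.6 and 69.2 CPM, a log2 fold change of 0.16 (95% interval -0.08 to 0.40). *SDHC*, a membrane anchor, had 50.3 and 51.2 CPM against 50.02 and 43.98 CPM, a log2 fold change of -0.11 (95% interval -0.34 to 0.12), and *SDHD*, the other anchor, one of -0.06 (95% interval -0.40 to 0.28). The intervals of all 3 ended below that of *SDHA*, which ran from 0.54 to 0.97, although the differences between genes were not tested. *SDHA* has near-identical pseudogene copies, so reads can be split among them. *SDHAP3* was higher (11.9 to 18.8 CPM in the group means, log2 fold change 0.66, adjusted p = 0.00131), whereas *SDHAP1* (12.8 to 14.4 CPM) and *SDHAP4* (27.4 to 21.8 CPM) did not pass. All 3 together were far below *SDHA*, and their part in its value was not tested.

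In complex III (cytochrome bc1 complex), 0 of 10 nuclear members passed in either direction, and the median log2 fold change was 0.13. At an unadjusted p below 0.05 edgeR gave 1 higher and 0 lower, and DESeq2 gave 0 past an adjusted p of 0.01. The median was -0.025 without miR-6133-5p replicate 1. The largest was that of *CYC1*, the cytochrome c1 subunit that hands electrons to cytochrome c. It had 47.7 and 44.04 CPM against 62.2 and 57.0 CPM, a log2 fold change of 0.38 (SE 0.10, adjusted p = 0.0154), without overlap of the groups. *UQCRFS1*, the Rieske iron-sulphur protein, had 71.5 and 75.3 CPM against 86.8 and 69.3 CPM, with overlap. *UQCRH*, the hinge protein and the highest nuclear member of the complex per kb (136 CPM per kb with miControl), had the lowest log2 fold change, 0.04, from 76.7 and 69.6 CPM to 81.2 and 68.8 CPM. *UQCRHL*, a near copy of *UQCRH*, stayed at 0.625 to 1.13 CPM, and reads of such a pair are uncertain.

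In complex IV (cytochrome c oxidase), 12 of 18 nuclear members were tested, with 1 higher, 1 lower and a median difference of 0.16 on the log2 scale (-0.0055 without miR-6133-5p replicate 1). *COX4I1* (ENSG00000131143, chr16:85832239-85840674), the common form of a regulatory subunit that binds ATP, had 42.3 and 39.9 CPM with miControl and 67.9 and 58.3 CPM with miR-6133-5p. The log2 fold change was 0.62 (SE 0.11, adjusted p = 0.000893), or 1.54-fold. The tested structural subunits of the complex around it ran from 0.10 (*COX6C*) to 0.31 (*COX7A2*) and did not pass. *COX7A2*, the highest nuclear member of the complex per kb (112 CPM per kb with miControl), had 50.9 and 52.6 CPM against 71.0 and 57.5 CPM (adjusted p = 0.0592). *NDUFA4*, named for complex I but a subunit of complex IV, had a log2 fold change of 0.15.

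The only member that was lower was *COX7A2L* (ENSG00000115944, chr2:42560686-42652228), a *COX7A*-like protein that joins complexes III and IV into supercomplexes. It had 85.9 and 84.4 CPM with miControl and 65.3 and 59.7 CPM with miR-6133-5p. The log2 fold change was -0.45 (SE 0.10, adjusted p = 0.00486), and it was opposite in sign to that of each other tested nuclear member of the complex. It kept its sign, at -0.28, with library totals in place of TMM, where the adjusted p was 0.0457. Without miControl replicate 1 or 2 it was -0.44 and -0.49, with adjusted p = 0.0751 and 0.0429.

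The 6 untested members of complex IV are forms of its subunits found mainly in heart, skeletal muscle, lung or testis. *COX6A2*, *COX7B2* and *COX8C* had 0 counts in all 4 libraries, which allows up to 0.0302 to 0.0610 CPM at the 3-count floor of each library. *COX4I2*, the hypoxia-linked alternative to *COX4I1*, did not exceed 0.0550 CPM, and *COX6B2* and *COX7A1*, the muscle form, lay between 0.0734 and 0.183 CPM. The other 2 untested members were *ATP5MGL* and the read-through gene *ATP5MF-PTCD1*, neither above 0.0917 CPM.

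In complex V (ATP synthase), 18 of 20 nuclear members were tested, of which 1 was higher and 0 lower (5 and 0 at an unadjusted p below 0.05, and 2 and 0 by DESeq2), and the median log2 fold change was 0.15. *ATP5MC1* (ENSG00000159199, chr17:46970127-46973233) is one of 3 genes for the same mature c subunit, the ring that turns with proton flow. It had 33.0 and 30.2 CPM with miControl and 50.6 and 44.3 CPM with miR-6133-5p, and the log2 fold change was 0.59 (SE 0.11, adjusted p = 0.0014). The other c-subunit genes differed less. *ATP5MC2* had 83.6 and 74.0 CPM against 86.0 and 77.1 CPM (0.05), and *ATP5MC3* 61.5 and 57.7 CPM against 68.4 and 61.0 CPM (0.12), each with overlapping groups. In sum, the nuclear members of complex V had 1669 and 1613 CPM against 2059.6 and 1804 CPM.

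*ATP5F1B*, the catalytic beta subunit, was the highest nuclear member of the whole set per kb, at 249 CPM per kb with miControl and 322 CPM per kb with miR-6133-5p. It had 441 and 434 CPM against 595 and 538 CPM, a log2 fold change of 0.37 (SE 0.10, adjusted p = 0.0151), which did not pass although the groups did not overlap. *ATP5F1A*, the alpha subunit, had 422 and 417 CPM against 539 and 485 CPM (0.29, adjusted p = 0.0526). The 5 subunits of the F1 head and central stalk had a median of 0.23 and the 4 of the peripheral stalk one of 0.25, with 0 past the threshold in each by edgeR (2 and 2 higher at an unadjusted p below 0.05, 1 and 0 by DESeq2). *ATP5IF1*, the inhibitor that stops the enzyme from running backwards, had 51.2 and 49.6 CPM against 55.1 and 46.4 CPM, a log2 fold change of 0.01 (95% interval -0.23 to 0.25). The lowest of the complex was *ATP5MJ*, at -0.03.

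**Figure D2:**
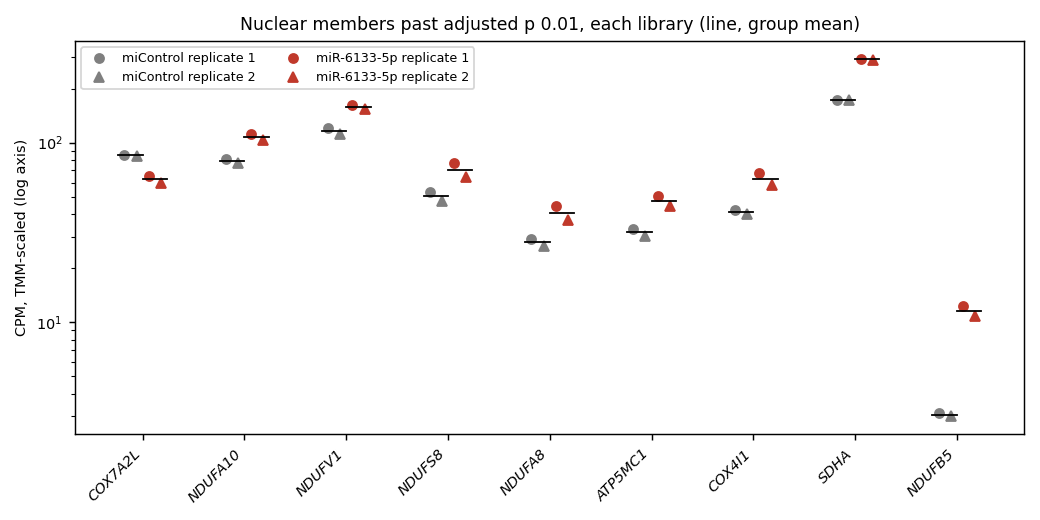
CPM after TMM scaling (log axis) in each of the 4 libraries for the nuclear members reported here that passed the adjusted p of 0.01, with a line at each group mean. Every gene but *COX7A2L* has both miR-6133-5p libraries above both miControl libraries, and the gap is widest for *NDUFB5* (3.05 against 11.5 CPM in the group means).

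Calls of single genes were often lost when a miControl library was left out, in fits where the miR-6133-5p pair alone gave the spread within groups. The log2 fold changes moved less. Without miControl replicate 1 and 2, that of *SDHA* was 0.75 and 0.72, and that of *COX4I1* was 0.65 and 0.55. For *NDUFS8* it was 0.56 and 0.38. Why the calls were lost was not tested. Of the members that passed, *NDUFB5* alone kept its call whichever library was left out. *SDHA* lost it without miControl replicate 1 (0.75, adjusted p = 0.0134), and *COX4I1* (0.0246 and 0.0356), *ATP5MC1* (0.0250 and 0.0525), *NDUFA8* (0.0396 and 0.0870), *NDUFS8* (0.0496 and 0.142), *NDUFV1* (0.0620 and 0.150) and *NDUFA10* (0.0733 and 0.136) had these adjusted p-values without miControl replicate 1 and 2. With 1 library left in a group, that library is assumed to vary like those of the other group. Without miR-6133-5p replicate 1, *NDUFS8* also did not pass (0.34, adjusted p = 0.0188). The log2 fold changes kept their sign in each of these fits.

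The 13 mitochondrially encoded members were much more abundant than the nuclear ones. They took 2.29% and 2.34% of all counts in the miControl libraries and 3.32% and 2.64% in the miR-6133-5p libraries, whereas the 89 nuclear members together took 0.426% and 0.409% against 0.593% and 0.519%. The 95% Wilson intervals of these shares reach at most 0.00447 percentage points to each side and cover counting error only. These shares are of library totals, before TMM scaling, and for both sets the miR-6133-5p libraries lay higher. With 2 libraries per group an exact permutation test cannot go below p = 0.33. After TMM scaling the mitochondrial members summed to 24144 and 24903 CPM with miControl against 31311 and 24995 CPM, so miR-6133-5p replicate 2 lay close to miControl. The nuclear members summed to 4496 and 4347 CPM against 5596 and 4910 CPM. The mitochondrial share differed by 0.66 percentage points between the group means, by 0.33 without miR-6133-5p replicate 1 and by 1.00 without replicate 2 of that group. The 2 ribosomal RNAs of the mitochondrial genome, which have short tails, took 0.212% and 0.215% against 0.285% and 0.242% of counts. Libraries made from polyadenylated RNA catch transcripts mainly by their tails, so a mitochondrial level also depends on tailing. It need not stand for all RNA of a gene, and tails were not measured.

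*MT-ND1* (chrM:3307-4262), the membrane-arm subunit of complex I next to the quinone site, was the only mitochondrial member that passed. It had 1257 and 1187 CPM with miControl and 2046 and 1512 CPM with miR-6133-5p, and the log2 fold change was 0.54 (SE 0.13, adjusted p = 0.00697). Both miR-6133-5p libraries were above both miControl libraries, and they lay farther apart than the miControl libraries. Without miR-6133-5p replicate 1 the log2 fold change was 0.29 (adjusted p = 0.000236), and without miControl replicate 1 or 2 it was 0.57 and 0.47 (adjusted p = 0.105 and 0.140).

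The other mitochondrial members of complex I had smaller differences. *MT-ND2* had 1473 and 1513 CPM against 2151 and 1601 CPM (log2 fold change 0.33). *MT-ND4*, the most abundant of them per kb, had 3206 and 3422 CPM against 4789 and 3489 CPM (0.32), and *MT-ND4L*, on the same mRNA, had 491 and 508 CPM against 636 and 515 CPM (0.20). In these 3 genes the miR-6133-5p libraries were the higher ones, yet replicate 2 lay close to the miControl libraries for *MT-ND4* and *MT-ND4L*. *MT-ND3* had 190.4 and 192 CPM against 234 and 187 CPM (0.14). *MT-ND5*, the distal proton-pumping subunit, had 1575 and 1827 CPM against 1727 and 1830 CPM (0.06). *MT-ND6*, the only one encoded on the other strand, had 194 and 216 CPM against 251 and 215 CPM (0.19). The groups overlapped for *MT-ND3*, *MT-ND5* and *MT-ND6*.

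In complex III, *MT-CYB*, cytochrome b with its 2 haems, had 1728 and 1710 CPM against 2510 and 1855 CPM (0.34, adjusted p = 0.0614), without overlap. In complex IV, *MT-CO1*, which holds the oxygen-reducing centre, had 8292 and 8449 CPM against 9242 and 7755 CPM, one miR-6133-5p library being the highest of the 4 and the other the lowest. Its log2 fold change was 0.02 (95% interval -0.21 to 0.25, adjusted p = 0.907). *MT-CO2*, which takes electrons from cytochrome c, had 2027 and 2127 CPM against 2689 and 2136 CPM (0.22), and *MT-CO3* had 2460 and 2394 CPM against 3093 and 2424 CPM (0.18). The mitochondrial members of complex V had larger values. *MT-ATP6* had 1159 and 1263 CPM against 1802 and 1364 CPM (0.39, adjusted p = 0.0360), and *MT-ATP8*, which overlaps it on the same mRNA and shares 22.2% of its exon bases, had 90.9 and 97.7 CPM against 141 and 112 CPM (0.42, adjusted p = 0.0180). Neither passed, and in neither did the groups overlap.

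**Figure D3:**
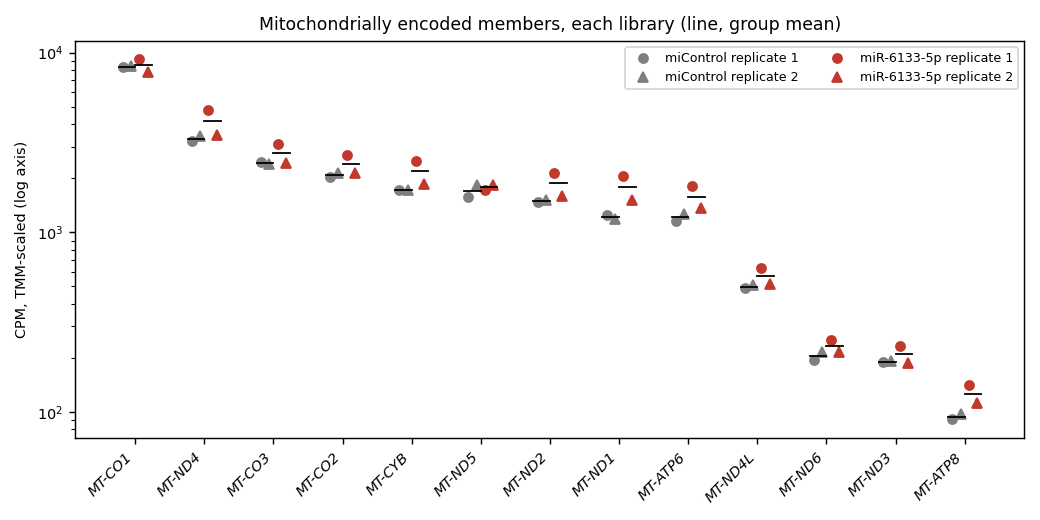
CPM after TMM scaling (log axis) in each library for the 13 mitochondrially encoded members, ordered by the miControl mean, which is shown as a line, as is that of miR-6133-5p. Replicate 1 of miR-6133-5p (red circles) lies above the other 3 libraries for every gene but *MT-ND5*, while replicate 2 (red triangles) lies close to the miControl libraries for most.

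All 13 log2 fold changes were above 0 under TMM and under each other scaling, with a median of 0.22 under TMM and 0.38 with library totals, but *MT-CO1* (-0.13, adjusted p = 0.00413), *MT-CO3* (-0.02) and *MT-ND3* (-0.04) turned below 0 without miR-6133-5p replicate 1. *MT-CO1* (-0.0034) and *MT-ND5* (-0.05) did so without miControl replicate 1. The median was 0.06 without miR-6133-5p replicate 1 and 0.36 without replicate 2 of that group. The number of mitochondrial members higher was 1 with all libraries, 0 without either miControl library, 1 without miR-6133-5p replicate 1 and 10 without miR-6133-5p replicate 2, and the number lower was 0 (also 0 at an unadjusted p below 0.05 and by DESeq2) and, without miR-6133-5p replicate 1, 1 (*MT-CO1*).

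The order of the mitochondrial levels was much alike in both groups. Per kb, the miControl mean was highest for *MT-CO1* (5428 CPM per kb), followed by *MT-CO3* (3095) and *MT-CO2* (3037), *MT-ND4* (2405), *MT-ATP6* (1778), *MT-ND4L* (1682), *MT-CYB* (1507), *MT-ND2* (1433), *MT-ND1* (1278), *MT-ND5* (939), *MT-ND3* (552), *MT-ATP8* (456) and *MT-ND6* (391). The 3 oxidase subunits thus led, and neighbours such as *MT-CO3* and *MT-CO2* differed by less than their libraries did. With miR-6133-5p, *MT-ND1* stood at 1861 CPM per kb, beside 1801 for *MT-ND2* and 1913 for *MT-CYB*, where with miControl it had lain below both. Genes on one mRNA (*MT-ND4* with *MT-ND4L*, *MT-ATP6* with *MT-ATP8*) had unequal levels per kb, and short reading frames that share bases with a neighbour are uncertain.

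Nuclear and mitochondrial members were set side by side without a test of the difference. The median log2 fold change of the mitochondrial set exceeded that of the nuclear set by 0.04, and by -0.01 to 0.13 when each library was left out, the largest value being that without miControl replicate 2. The counts on mitochondrial members per count on nuclear members were 5.37 and 5.73 with miControl and 5.60 and 5.09 with miR-6133-5p, so the groups overlapped. Within complex I, the same ratio was 6.45 and 7.05 against 7.12 and 6.34, and within complex V it was 0.749 and 0.843 against 0.943 and 0.818, again with overlap. In complex III it was 2.65 and 2.77 against 3.33 and 2.83, the miR-6133-5p libraries being the higher, and in complex IV 22.8 and 23.8 against 22.5 and 22.2, where they were the lower. The gaps in complexes III and IV were small beside the spread between replicates, and 2 libraries per group cannot reach p = 0.05 in an exact permutation test.

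**Figure D4:**
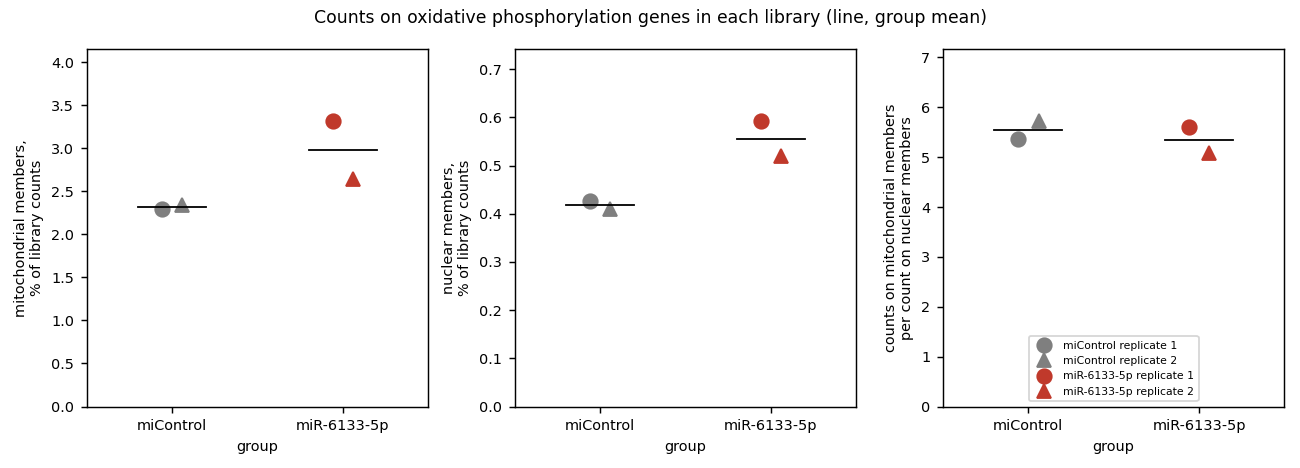
Percent of library counts on the mitochondrial members (left) and the nuclear members (middle), and counts on mitochondrial members per count on nuclear members (right), for each library, with a line at the group mean. Both shares, taken before TMM scaling, are higher in the miR-6133-5p libraries. The ratio, from 5.09 to 5.73, overlaps between the groups.

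Genes that build, feed or regulate the chain were examined as lists beside the members. For every list here and below, the background is the 7.96% of all tested genes that were higher and the 10.9% that were lower. No list was tested as a set. Of the assembly factors, which put the complexes together and are not part of them, 1 of 18 for complex I was higher and 2 were lower, 0 of 4 for complex II, 0 of 6 for complex III and 0 of 5 for complex V passed, and 1 of 22 for complex IV was lower. At an unadjusted p below 0.05, complex II had 1 higher and 1 lower, complex III 1 and 0 and complex V 0 and 0, and DESeq2 gave 0 for all 3. *ECSIT*, which acts in complex I assembly and in innate immune signalling, had 16.8 and 15.1 CPM against 31.3 and 27.5 CPM, a log2 fold change of 0.88 (SE 0.12, adjusted p = 0.00011). *DMAC1*, an assembly factor of the distal membrane arm, had 7.58 and 7.16 CPM against 3.93 and 4.07 CPM, a log2 fold change of -0.88 (SE 0.15, adjusted p = 0.000671).

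Of the 21 electron carriers and entry enzymes, which make ubiquinone or deliver electrons to it, 4 were higher and 0 lower, with a median of 0.20 (6 and 0 at an unadjusted p below 0.05, and 4 and 0 by DESeq2). *COQ8A*, a kinase-like protein needed for ubiquinone synthesis, had 6.95 and 7.01 CPM against 13.4 and 14.1 CPM, a log2 fold change of 0.98 (SE 0.13, adjusted p = 7.8e-05). Of the 12 nuclear regulators of respiratory genes, 0 were higher and 2 were lower (1 and 3 at an unadjusted p below 0.05, and 0 and 2 by DESeq2). *PPRC1*, a coactivator related to PGC-1 alpha, had 152 and 141 CPM against 78.1 and 89.6 CPM (-0.80, adjusted p = 0.000111), and *MYC*, a growth-linked transcription factor, had 164 and 156 CPM against 91.9 and 86.4 CPM (-0.85, adjusted p = 4.23e-05). Both were lower in each miR-6133-5p library. Of the 16 genes for replication and transcription of mitochondrial DNA, 1 was higher and 1 lower. The gene that was higher, named after its values were seen, was *POLRMT*, the mitochondrial RNA polymerase (26.6 and 23.6 CPM against 39.8 and 41.7 CPM, log2 fold change 0.70, adjusted p = 0.00034). Of the 16 for processing and stability of its RNA, 2 were higher and 0 lower (2 and 2 at an unadjusted p below 0.05, and 2 and 0 by DESeq2).

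Of 75 mitochondrial ribosomal protein genes tested, which serve to translate the 13 mitochondrial members, 7 were higher and 2 lower, with a median of 0.21. Among all tested genes the shares were 7.96% higher and 10.9% lower. *MRPS35*, of the small subunit, had 30.7 and 31.2 CPM against 72.5 and 60.5 CPM (1.10, adjusted p = 1.1e-05). Among 14 enzymes of the tricarboxylic acid cycle 2 were higher and 1 was lower (median 0.09), and among 17 glycolytic enzymes 5 were higher and 1 was lower (median 0.18). *ENO2*, an enolase, had 23.3 and 23.8 CPM against 68.9 and 65.5 CPM (1.51, adjusted p = 3.72e-07), and *HK2*, which phosphorylates glucose at the outer mitochondrial membrane, had 78.1 and 79.8 CPM against 41.3 and 47.8 CPM (-0.82, adjusted p = 7.92e-05). Of the 17 import and protease genes tested, 1 was higher and 4 were lower, the most lower genes of these pathway lists. The only tested gene of 2 other isoforms of respiratory subunits did not pass. Over all lists other than the members and cell type markers, 23 genes were higher and 14 lower, and these became 6 and 2 without miControl replicate 1, 4 and 7 without miControl replicate 2 and, for the higher genes, 55 without miR-6133-5p replicate 2 and, for the lower ones, 27 without miR-6133-5p replicate 1.

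**Figure D5:**
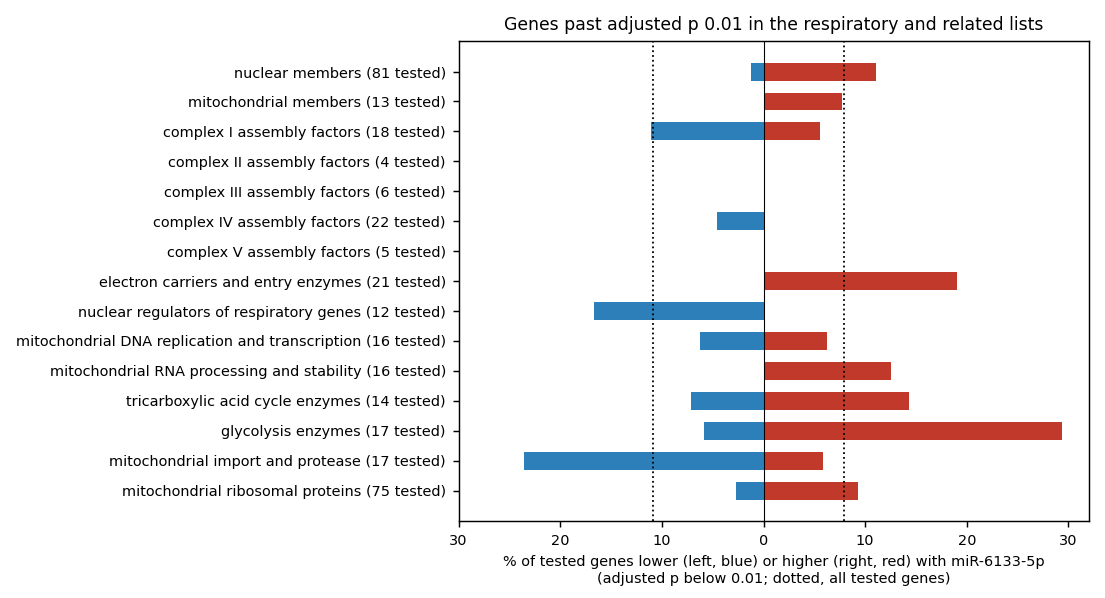
Percent of the tested genes of each pathway list that were lower (left, blue) or higher (right, red) with miR-6133-5p at an adjusted p below 0.01, with the number tested in brackets and dotted lines at the shares among all tested genes (10.9% lower, 7.96% higher). Nuclear members reach 11.1% higher and 1.23% lower, and of the lists drawn, which leave out the cell type markers, the import and protease list has the longest bar to the left.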

How the data were processed

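The authors sequenced polyadenylated RNA of 4 libraries as pairs of 150-base reads, and aligned them to GRCh37 with STAR 2.5.3a. The deposited counts are whole numbers per Ensembl gene, not normalized, and the submitters' processing notes name featureCounts of Subread 1.6.4. The annotation release and the settings for strand, multiple mapping and shared exons are not given in the sources used here. Counts per uniquely mapped pair were 1.68 to 1.70, so that a pair can count 2 times. Groups followed the labels.

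Symbols, positions and transcript lengths came from GENCODE lifted to GRCh37, which left 8012 of 63677 identifiers unmatched (0.675% to 0.723% of counts). Genes kept by filterByExpr were scaled by TMM and tested, miR-6133-5p against miControl, with the 2-sided quasi-likelihood F test of edgeR 4.0.16 (R 4.3.3), with Benjamini-Hochberg adjustment over 18252 genes. Higher and lower mean an adjusted p below 0.01. A log2 fold change of 0.8 was the further limit. Log2 fold changes are miR-6133-5p minus miControl. Values were listed per library for all mitochondrial members, for nuclear members past the threshold and for the extreme and the most abundant members of each complex, and for listed genes past both limits. Other members were named after their values were seen. Values of 1 member are not reported here. Members and lists were chosen with earlier results of these data known. On simulated data of 17837 genes with 195 changed, the test found 168, with 0 false calls. The simulation gave every gene the same dispersion and set no shift between replicates. Its changes were larger than those of every tested member but *NDUFB5*. It therefore does not show how the test does with differences of the members' size. Alternatives were RLE factors, library totals, TMM without the mitochondrial chromosome, DESeq2 1.42.0, no filter, at least 10 counts in every library, a replicate block, the threshold 0.05, the fold limit and each library left out.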

Additional observations from a re-analysis of the deposited data

How the results depend on the processing

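With 2 libraries per group and 1 line, the calls rest on few residual degrees of freedom, and an effect the size of most members' differences passes or fails with small changes in the fit. The 9 nuclear members that were higher numbered 22 with library totals, 15 without a filter on low counts, 17 at an adjusted p of 0.05, 1 with the log2 fold change of 0.8 added and 1 to 26 with each library left out. The 1 that was lower became 0 with library totals and with the fold limit, and 0 to 1 with each library left out. The 1 mitochondrial member that was higher became 5 with library totals, 2 with DESeq2, 6 without a filter, 3 at an adjusted p of 0.05, 0 with the fold limit and 0 to 10 with each library left out, and the 0 that were lower became 0 to 1. The 23 higher and 14 lower genes of the related lists became 61 and 8 with library totals, 46 and 23 at 0.05, 4 and 4 with the fold limit, and 4 to 55 and 2 to 27 with each library left out. Library totals raised the median of all tested genes from 0.03 to 0.19, and the median of nuclear members to 0.34, of complex I to 0.44, of complex II to 0.21, of complex III to 0.30, of complex IV to 0.33, of complex V to 0.31 and of the mitochondrial members to 0.38, so that the distance to all genes stayed nearly the same. With each library left out, these medians ran from 0.05 to 0.28 (nuclear), 0.11 to 0.39 (I), -0.11 to 0.23 (II), -0.025 to 0.22 (III), -0.0055 to 0.30 (IV) and 0.016 to 0.26 (V), and the mitochondrial minus nuclear median from -0.013 to 0.13. The lowest value of each complex came without miR-6133-5p replicate 1, and the cause was not tested. Signs turned without single libraries for *MT-CO1* (-0.0034 and -0.13; range to 0.13), *MT-CO3* (-0.019 to 0.33), *MT-ND3* (-0.044 to 0.28) and *MT-ND5* (-0.050 to 0.15). RLE factors, TMM without the mitochondrial chromosome and at least 10 counts in every library kept the numbers of members higher and lower within 1.5 times and changed no call among the mitochondrial members and the nuclear members that had passed. With at least 10 counts, 11 nuclear members were higher.

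The replicate numbers are not stated to mark shared cultures, and deviations of same-numbered libraries correlated by 0.0665 over genes. With a replicate block, 16 nuclear and 3 mitochondrial members were higher, and 4673 in place of 3436 of all genes passed.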
